A study of Mus musculus with 20 samples.

Results

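Mouse genes for amino acid transporters and their close relatives were followed across 3 sorted states of embryonic stem cells. The genes were chosen by symbol in the RNA-seq table: every protein-coding gene of the solute carrier families Slc1, Slc3, Slc6, Slc7, Slc36, Slc38 and Slc43. The rule matched 61 genes and left 1 Slc38 gene out, which gives 60 genes of 29692 in the table and of 18045 protein-coding genes. No measured value entered the rule. Matching by symbol also brought in Slc7a6os, which is named for lying on the opposite strand beside Slc7a6 and is not a transporter.

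The study grew mouse embryonic stem cells in 10% fetal bovine serum with leukemia inhibitory factor, and sorted them by flow cytometry on Nanog and Sox2, transcription factors of pluripotency. Cells of state 3 were low in both factors, those of state 2 were low in Nanog and high in Sox2, those of state 1 were high in both, and the unsorted total population was the fourth group. Ribosome-depleted RNA-seq was made from 12 libraries, 3 in each group, and small RNA sequencing from 8, 2 in each group. The deposited tables merge the libraries into 1 value per gene and group, so values below carry no replicate error, and the error is held only in the authors' posterior probabilities.

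A difference between groups was called where the probabilities of all the authors' deposited patterns that set those groups apart summed to at least 0.95. "Rose", "fell", "higher" and "lower" in counts below refer to such calls, and each probability quoted is that sum from the authors' deposited table. Log2 ratios were taken on value + 1, which understates the change of weakly detected genes. The labels do not say that libraries of a group came from separate cultures, so the probabilities may measure technical spread only. Levels are not given per transcript length, so each gene was compared with itself across groups and never with another gene.

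Amino acids cross the cell membrane through families of carriers that differ in what they take and how they are driven. Slc7 light chains such as Slc7a5 and Slc7a7 exchange amino acids and reach the cell surface only when joined to an Slc3 heavy chain, while the cationic carriers Slc7a1, Slc7a2 and Slc7a3 bring in arginine and lysine on their own. Several Slc38 and Slc6 proteins use the sodium gradient, and some Slc36 proteins use protons. Slc43a1 and Slc43a2 let large neutral amino acids pass down their gradient. Slc1 proteins carry glutamate, aspartate or small neutral amino acids. Many Slc6 members carry transmitters, creatine or taurine rather than amino acids used for protein synthesis. Leucine, arginine and glutamine brought in by these carriers feed protein synthesis and the sensing of nutrients by the kinase complex mTORC1.

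The sort was visible in its own genes. Nanog stood at 439.96 in state 3, 743 in state 2, 4145 in state 1 and 2783 in the total population, and Sox2 stood at 1306, 3167, 4155 and 3955 in the same groups. The summed level of 10 naive pluripotency markers was 7098 in state 3, 13213 in state 2 and 47771 in state 1, and all 10 were lower in state 3 than in state 1. Markers of other cell types moved with the states. Of 10 trophectoderm markers 8 were higher and 1, Tfap2c, lower in state 3 than in state 1. They summed to 9975 in state 3, 2778 in state 2 and 1320.0 in state 1. In state 3 Krt8 held 5389 and Krt18 3437 of this sum, whereas in state 1 Tfap2c held 951. Of 11 fibroblast markers 6 were higher and 5 were not called, with sums of 5442, 1315 and 184 in states 3, 2 and 1. Tagln alone held 3445, 978 and 70.2 of these, so the sums do not describe the other fibroblast markers. Dcn and Lum were at 0 in at least 1 group. Of 11 endoderm markers 6 were higher, with sums of 1010.2, 408 and 145. Of 8 mesendoderm markers 4 were higher, with sums of 479, 125 and 76.4. Of 9 markers of neuroectoderm and glia 2 were higher, 1, Olig2, was lower and 6 were not called, with sums of 6995, 3103 and 2096. Nes alone held 5446, 1759 and 248 of these, so the sums do not describe the other neural markers. The 9 formative and primed epiblast markers counted 6 higher and 1 lower, with sums of 15700.2, 16778 and 7518. The part of these cells in the transporter values was not tested. In bulk RNA, fewer cells of a type and less RNA per cell cannot be told apart.

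Calls among the transporter genes were most numerous between states 3 and 1 and fewest between states 3 and 2. In state 3 against state 1, 15 of the 60 genes rose and 6 fell, where 11.4% of all genes rose and 9.01% fell. In state 2 against state 1, 11 rose and 7 fell, where 7.11% of all genes rose and 6.33% fell. In state 3 against state 2, 4 rose and 1 fell, where 5.41% of all genes rose and 3.19% fell. Abundant genes are called more often, and among genes with a mean of at least 10 the share called was 38.1% when state 3 was set against state 1, 25.6% in state 2 against state 1 and 16.3% in state 3 against state 2. Of the 35 transporter genes with such a mean, 18 were called in the first of these comparisons, 16 in the second and 5 in the third. In both comparisons with state 1, 9 genes rose and 5 fell. All 60 are protein-coding. Of protein-coding genes 17.7% rose and 13.8% fell in state 3 against state 1, and 11.1% and 9.78% in state 2 against state 1. In state 3 against state 2 these shares were 8.55% and 4.90%. Of 279 other protein-coding Slc genes, 17.6% rose and 12.9% fell in state 3 against state 1. The median log2 ratio of the 60 genes was 0.07 in state 3 and 0.09 in state 2, each against state 1, beside 0.00 for all genes. For the other Slc genes it was 0.16 in state 3 and 0.04 in state 2. The 60 genes together held 0.228% of the summed table values in state 3, 0.230% in state 2, 0.212% in state 1 and 0.218% in the total population.

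**Figure D1:**
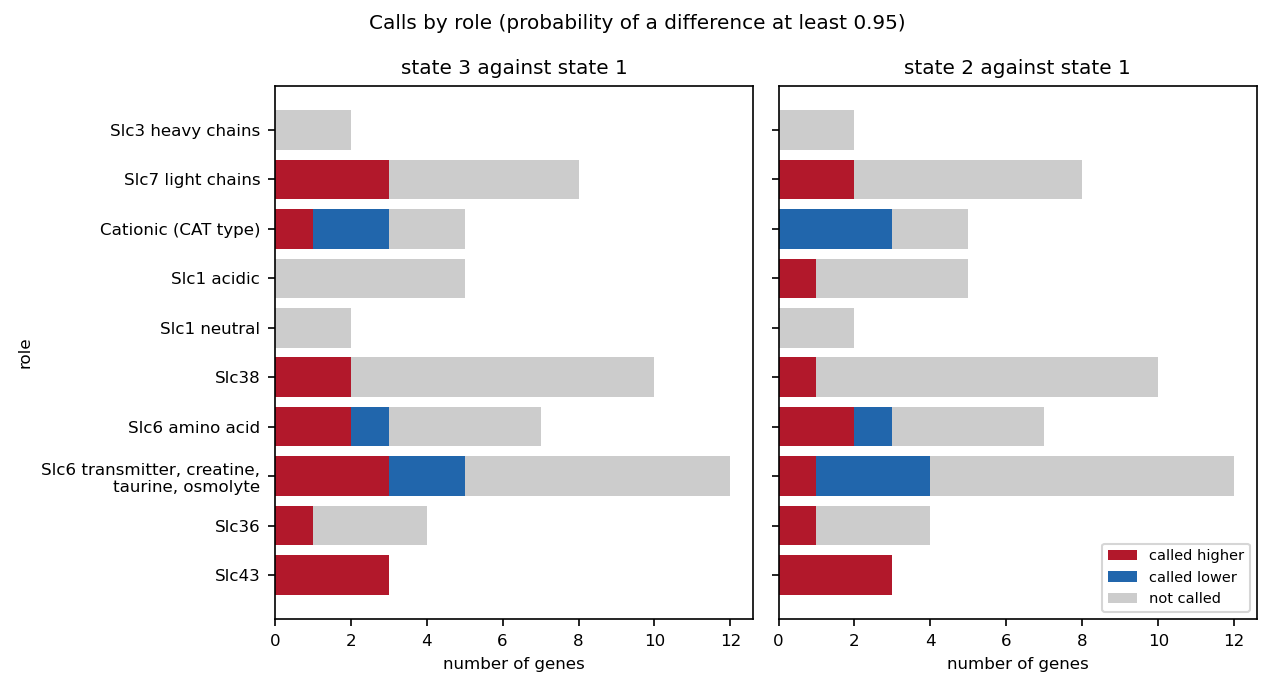
Number of transporter genes called higher, called lower or not called (horizontal axis) by role (vertical axis), for state 3 against state 1 on the left and state 2 against state 1 on the right; Slc7a6os and Slc6a21 are not drawn. All 3 Slc43 genes were higher in both comparisons, and the calls of the cationic carriers were 3 lower in state 2 and 2 lower with 1 higher in state 3.

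Of the 60 genes, 44 have promoters in the RefSeq table on GRCm38.p6, among them 15 of the 25 genes called between states. Each window of 250 bases before to 50 bases after a gene's start was searched on both strands for 3 motifs. The composite element of ATF4 and C/EBP, the site through which amino acid shortage raises many transporter genes, was searched as TGATGNAAN. It lay in 4 of the 44 genes (9.09%) and in 4.50% of all 27025 genes of that table. The antioxidant response element, bound by NRF2, was searched as TGACNNNGC and lay in 9 of 44 (20.5%) and in 14% of all genes. The E-box CACGTG, bound by MYC and by the lysosomal regulator TFEB, lay in 9 of 44 (20.5%) and in 8.09% of all genes. A match describes letters only and is no evidence of binding. Of the 15 called genes, 1 held the ATF4 and C/EBP motif, 5 the antioxidant element and 2 the E-box. The stretches below hold matches of some genes described in the following paragraphs. Also described but not shown are matches of the antioxidant element in Slc7a1 and Slc6a9, of the E-box in Slc7a14, and of both in Slc6a16. Capitals mark the matches, and the strand is that of the gene.
Slc7a11, chr3:50443604-50443723, minus strand: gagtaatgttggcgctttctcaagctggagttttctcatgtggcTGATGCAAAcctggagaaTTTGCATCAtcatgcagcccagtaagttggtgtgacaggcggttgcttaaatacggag
Slc7a7, chr14:54417935-54418104, minus strand: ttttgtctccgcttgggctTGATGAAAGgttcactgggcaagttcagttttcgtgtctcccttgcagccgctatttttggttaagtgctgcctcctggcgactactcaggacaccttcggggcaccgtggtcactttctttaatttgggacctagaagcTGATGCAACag
Slc1a4, chr11:20332704-20332823, minus strand: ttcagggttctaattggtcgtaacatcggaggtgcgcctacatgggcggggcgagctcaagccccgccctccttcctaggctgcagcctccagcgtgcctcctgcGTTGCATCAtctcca
Slc38a2, chr15:96699719-96699838, minus strand: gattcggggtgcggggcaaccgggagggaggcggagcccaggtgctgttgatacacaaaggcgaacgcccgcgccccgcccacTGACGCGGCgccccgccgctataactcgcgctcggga
Slc7a6, chr8:106168811-106168930, plus strand: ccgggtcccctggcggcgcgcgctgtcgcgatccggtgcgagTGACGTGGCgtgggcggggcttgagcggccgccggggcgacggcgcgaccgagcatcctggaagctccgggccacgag
Slc43a1, chr2:84840213-84840332, plus strand: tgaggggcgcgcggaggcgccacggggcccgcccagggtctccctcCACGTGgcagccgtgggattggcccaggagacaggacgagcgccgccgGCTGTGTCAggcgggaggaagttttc
The first 3 carry the ATF4 and C/EBP motif. Slc38a2 and Slc7a6 carry the antioxidant element. Slc43a1 carries both an E-box and, on the other strand, an antioxidant element.

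The pair that forms the main exchanger for leucine and other large neutral amino acids was not called between states. Slc3a2, the heavy chain also known as CD98, had values of 4059 in state 3, 4093 in state 2, 3822 in state 1 and 3834 in the total population. Its light chain Slc7a5 had values of 6034, 5305, 5396 and 5435 in the same groups. The log2 ratio of Slc7a5 in state 3 against state 1 was 0.16, with a probability of a difference of 0.142 from the authors' deposited table. The other heavy chain, Slc3a1, which pairs with the cystine carrier Slc7a9 in kidney, was near the limit of detection at 4.32 in state 3, 7.67 in state 2 and 4.22 in state 1.

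Other light chains of the same heavy chain rose. Slc7a7, which exports cationic amino acids in exchange for neutral ones and sodium, had values of 2962 in state 3, 3556 in state 2, 2143 in state 1 and 2527 in the total population. It was higher in state 2 than in state 1 (log2 ratio 0.73) and higher in state 3 than in state 1 (0.47), while states 3 and 2 were not called apart (-0.26, probability 0.0246 from the authors' deposited table). Its promoter holds the ATF4 and C/EBP motif at 141 bases before the start and again across it, and its RefSeq span overlaps Oxa1l. Slc7a8, an exchanger of neutral amino acids, lies on chromosome 14 with Slc7a7, 302 kb away. It had values of 74.25 in state 3, 71.9 in state 2, 41.6 in state 1 and 41.4 in the total population, and was higher in both state 3 (0.82) and state 2 (0.77) than in state 1. Slc7a6, the close relative of Slc7a7, followed another course. It had 1767 in state 3 against 1488 in state 2, 1442 in state 1 and 1456 in the total population, and rose in state 3 against both state 2 (0.25) and state 1 (0.29). Of the 8 light chain genes 3 were higher in state 3 than in state 1 and none lower.

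The cystine and glutamate exchanger Slc7a11 supplies cysteine for glutathione and is a textbook target of ATF4. Its promoter holds the composite motif on both strands, but its values of 18.7 in state 3, 12.7 in state 2, 9.37 in state 1 and 7.82 in the total population were not called apart. The log2 ratio in state 3 against state 1 was 0.92, and the probability of any difference in the authors' deposited table was 3.62e-11. Slc7a11, Slc1a1, Slc1a4, Slc1a5 and Slc6a14 were named after their values were seen.

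The cationic carriers, which import arginine and lysine, were lower in state 2 than in state 1 in all 3 of their best-known members. Slc7a1, the widely expressed arginine importer, had values of 2545 in state 3, 2137 in state 2, 3049 in state 1 and 2781 in the total population. It fell in state 2 against state 1 (log2 ratio -0.51), and in state 3 the ratio of -0.26 missed the call with a probability of 0.928 from the authors' deposited table. Slc7a3 had 1169.6 in state 3, 1315 in state 2, 1815 in state 1 and 1510.5 in the total population, and fell in both state 3 (-0.63) and state 2 (-0.46) against state 1; its span overlaps Snx12. Slc7a2, whose splice forms serve liver and macrophages, had 106 in state 3, 90.2 in state 2, 174 in state 1 and 123 in the total population. It fell in state 3 (-0.71) and state 2 (-0.94), although both calls are lost if the pattern order exchanges state 1 and the total population (probabilities 0.684 and 0.728). Slc7a14, a family member found in lysosomes, went the other way at low level. It had 22.0 in state 3, 11.7 in state 2, 8.39 in state 1 and 8.22 in the total population, and rose in state 3 against state 1 (1.29).

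All 3 Slc43 genes were higher in states 3 and 2 than in state 1. Slc43a1 and Slc43a2 carry branched-chain amino acids and phenylalanine, and Slc43a3 is known as a carrier of purine bases. Slc43a1 had values of 206 in state 3, 179 in state 2, 88.3 in state 1 and 104 in the total population, a log2 ratio of 1.21 in state 3 and 1.01 in state 2 against state 1. Slc43a2 had 372 in state 3, 398 in state 2, 259 in state 1 and 274 in the total population, with ratios of 0.52 in state 3 and 0.61 in state 2. Slc43a3 had 80.3 in state 3, 62.4 in state 2, 41.2 in state 1 and 45.9 in the total population, with ratios of 0.95 in state 3 and 0.59 in state 2. None of the 3 was called between states 3 and 2. Slc43a1 (chr2:84838855-84863586) and Slc43a3 (chr2:84936545-84958509) are neighbours separated by 73.0 kb.

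**Figure D2:**
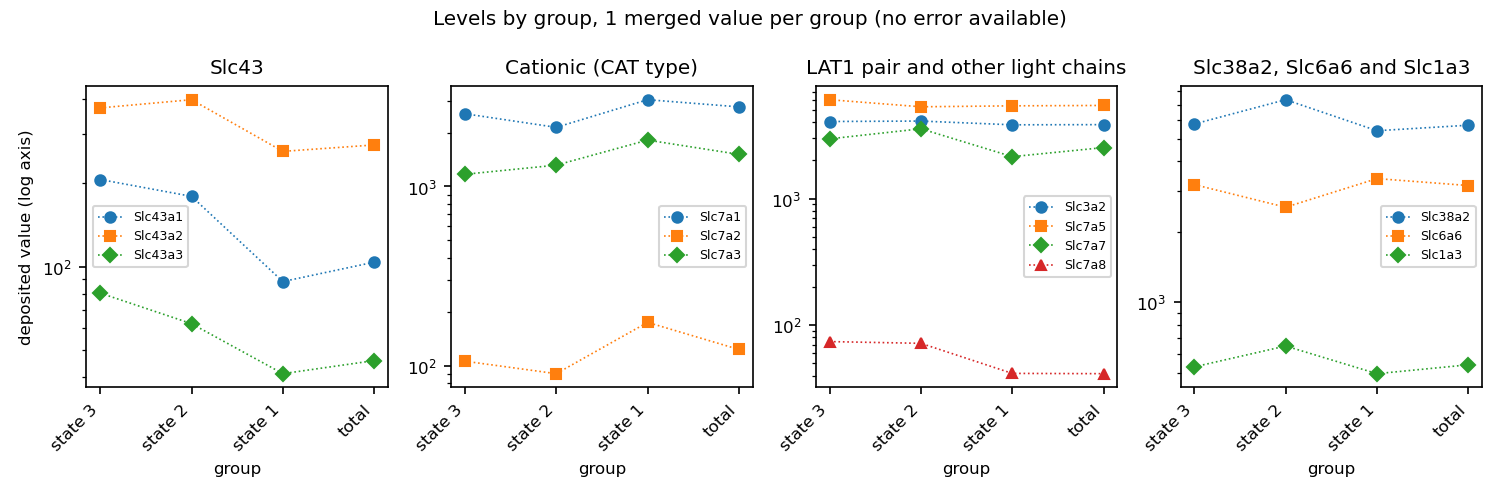
Deposited values on log axes (vertical) in the 4 groups (horizontal) for Slc43 genes, cationic carriers, the Slc3a2 and Slc7a5 pair with other light chains, and Slc38a2, Slc6a6 and Slc1a3; each point is 1 merged value with no error, and levels of different genes are not comparable. Slc43a1 lies at 206 in state 3 against 88.3 in state 1, Slc7a3 at 1169.6 against 1815, and Slc3a2 at 4059 against 3822.

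Sodium-coupled Slc38 carriers of glutamine, alanine and other small neutral amino acids gave the only gene that fell in state 3 against state 2. This was Slc38a2, the carrier that cells raise when amino acids run short. It had values of 5785 in state 3, 7349 in state 2, 5413 in state 1 and 5715 in the total population. It rose in state 2 against state 1 (log2 ratio 0.44) and fell in state 3 against state 2 (-0.35), and states 3 and 1 were not called apart (0.10, probability 0.217 from the authors' deposited table). Its neighbour Slc38a1, 44.0 kb away on chromosome 15 and of like substrates, was instead highest in state 3. Slc38a1 had 4366 in state 3, 3707 in state 2, 3541 in state 1 and 3697 in the total population, and rose in state 3 against state 2 (0.24) and state 1 (0.30). Slc38a9, the lysosomal arginine sensor that activates mTORC1, had 258 in state 3, 245 in state 2, 212 in state 1 and 196 in the total population. It rose in state 3 against state 1 (0.28), and its ratio of 0.21 in state 2 fell just short of a call at a probability of 0.945 from the authors' deposited table. Slc38a10, of less settled function, was not called, with 1282 in state 3, 1313 in state 2, 1249 in state 1 and 1295 in the total population.

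Slc6a6 and Slc1a3, like Slc38a2 and Slc7a1, were called in state 2 against state 1 and not in state 3 against state 1. Slc6a6, the taurine carrier, had 3184 in state 3, 2549 in state 2, 3378 in state 1 and 3155 in the total population. It fell in state 2 against state 1 (-0.41) and rose in state 3 against state 2 (0.32), the mirror image of Slc38a2. Slc1a3, a glutamate and aspartate carrier best known in astrocytes, had 529 in state 3, 649.6 in state 2, 495 in state 1 and 539.8 in the total population. It rose in state 2 against state 1 (0.39) with a probability of 0.955 from the authors' deposited table, close to the threshold, and 0.945 under the exchanged pattern order. The joint probability from the authors' deposited table that state 2 stood apart while states 1 and 3 were equal was 0.870 for Slc6a6, 0.783 for Slc38a2 and 0.599 for Slc1a3. None reached 0.95, a level that 0.0168% of all genes reached.

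The remaining Slc1 carriers were not called. Slc1a5, the exchanger of glutamine and other neutral amino acids, had 863 in state 3, 921 in state 2, 1029 in state 1 and 944 in the total population, with a probability of 0.370 for state 3 against state 1 from the authors' deposited table. Slc1a4, which carries alanine, serine and cysteine, had 474 in state 3, 501 in state 2, 346 in state 1 and 412 in the total population, with a log2 ratio of 0.45 in state 3 and 0.53 in state 2 against state 1. Slc1a1, a glutamate and cysteine carrier of neurons and kidney, had 7.64 in state 3, 6.36 in state 2, 20.3 in state 1 and 13.4 in the total population. Its ratio of -1.30 in state 3 against state 1 had a probability of any difference of 1.77e-08 in the authors' deposited table.

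Among the Slc6 genes that carry amino acids, 2 were higher and 1 lower in state 3 than in state 1. Slc6a15, a sodium-driven carrier of branched-chain amino acids and proline best known in brain, had 334 in state 3, 331 in state 2, 172 in state 1 and 189 in the total population. Its log2 ratios against state 1 were 0.95 in state 3 and 0.94 in state 2. Slc6a17, which loads neutral amino acids into synaptic vesicles, had 22.9 in state 3, 11.7 in state 2, 1.62 in state 1 and 4.12 in the total population, a ratio of 3.19 in state 3 and 2.28 in state 2. Slc6a7, the brain proline carrier, ran the opposite way with 0.71 in state 3, 2.97 in state 2, 16.45 in state 1 and 14.1 in the total population. The level in state 3 corresponds to about 2 reads, and its ratio to state 1 was 0.0432 with a 95% counting interval of 0.00520 to 0.168. Slc6a14, a carrier of both neutral and cationic amino acids, was not called and had 167 in state 3, 193 in state 2, 189 in state 1 and 196 in the total population.

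The creatine carrier Slc6a8 and the glycine carrier Slc6a9 moved in opposite directions in state 3 against state 1. In state 2 against state 1 only Slc6a8 was called. Slc6a8, the creatine carrier, had 585 in state 3, 494 in state 2, 1032 in state 1 and 805 in the total population, and fell in state 3 (-0.82) and state 2 (-1.06). Slc6a9, the glycine carrier, had 221 in state 3, 160.3 in state 2, 159 in state 1 and 158 in the total population, and rose in state 3 against both state 2 (0.46) and state 1 (0.47); its span overlaps Ccdc24.

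Among transmitter carriers with few reads, only Slc6a2 and Slc6a4 rose in state 3 against state 1. Slc6a2, the noradrenaline carrier, had 15.5 in state 3, 7.45 in state 2, 0.97 in state 1 and 2.08 in the total population. With about 3 reads in state 1, its level was 16.0 times that of state 1 in state 3 (95% counting interval 5.16 to 81.3) and 7.68 times in state 2 (2.42 to 40.6). Slc6a4, the serotonin carrier, had 11.8 in state 3, 2.69 in state 2, 0.32 in state 1 and 0.99 in the total population. It was called in state 3 against state 1 at 37.0 times the level, with an interval of 6.22 to 1510.2 that rests on about 1 read in state 1. These intervals cover counting error only. Across the sorted states the levels of Slc6a2 and Slc6a4 ran in the order of the trophectoderm, fibroblast, endoderm and mesendoderm sums above. The epiblast sum did not run in this order. It is not particular to these genes, since Slc43a1, Slc6a17 and Slc36a4, among others, also fell from state 3 through state 2 to state 1 in level. The part of any cell type in these levels was not tested.

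Slc36a4, a carrier of proline and tryptophan, was the only one of 4 Slc36 genes called. It had 89.0 in state 3, 63.8 in state 2, 27.1 in state 1 and 43.2 in the total population, with a log2 ratio of 1.68 in state 3 and 1.21 in state 2 against state 1. Slc7a6os, the gene beside Slc7a6, had 629 in state 3, 683 in state 2, 766 in state 1 and 745 in the total population. It fell in state 3 against state 1 (-0.28), the opposite direction to Slc7a6, which ends 1.72 kb away.

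**Figure D3:**
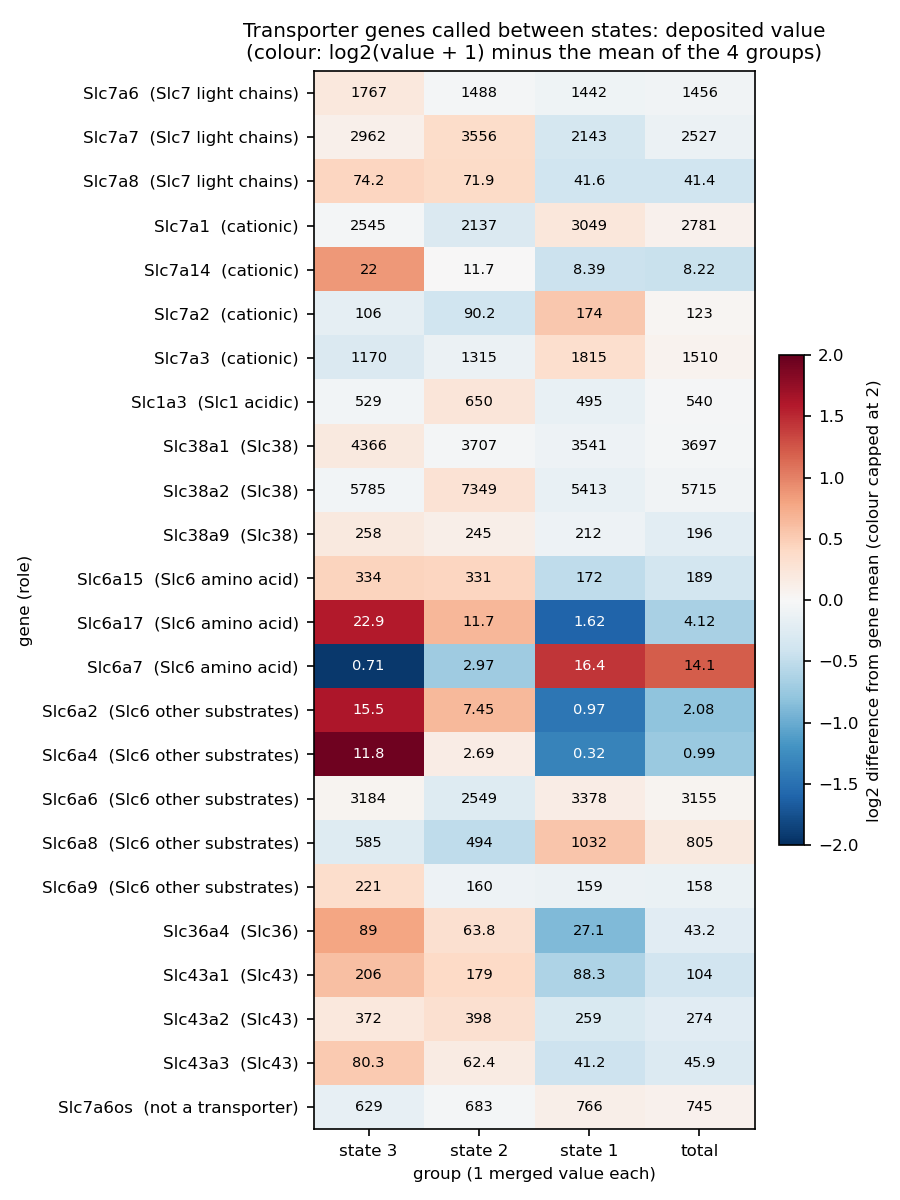
Deposited values (numbers) of 24 of the 25 genes called between states (rows) in the 4 groups (columns); colour is log2(value + 1) minus the gene's mean over the groups, red above and blue below, capped at 2. Slc6a17, Slc6a2 and Slc6a4 are red in state 3 and blue in state 1, and Slc6a7 is the reverse.

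The 35 genes not called between states divided by abundance. A mean of at least 10 was found in 13 of them and a mean below 10, between 0.07 and 9.20, in the other 22, of which 12 were at 0 in at least 1 sorted state. A value of 0 allows a level of up to 0.84 to 1.08, depending on the group. For 19 of the uncalled genes, none with a mean above 12.1, the probability of any difference in the authors' deposited table was under 1e-06, although Slc6a16, for one, was at 0 in state 3, 3.01 in state 2 and 5.79 in state 1. A missing call in these genes is no measurement of equality. Slc6a20a and Slc6a20b are related neighbours, 4.37 kb apart, and reads may have been divided between them.

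By joint probability over the 3 states, 5 genes had state 1 apart with states 3 and 2 equal, which 3.78% of all genes did. They were Slc43a2, Slc6a15, Slc6a7, Slc7a7 and Slc7a8. In 3 genes, Slc38a1, Slc6a9 and Slc7a6, state 3 stood apart with states 2 and 1 equal, which 1.65% of all genes did. No gene reached 0.95 for 3 different levels, a pattern of 3.51% of all genes. The pattern with all 3 states equal reached 0.95 in 20 genes, where 55.2% of all genes had this pattern. Of these, 19 were the weakly detected ones above, for which it is no measurement of equality, and the other was Slc38a10. For the 21 genes called between states 3 and 1, the median share of the log2 distance already covered in state 2 was 0.717, beside 0.603 for all 6070 genes so called. The share ran between 0.0161 in Slc6a9 and 1.56 in Slc7a7, where a share above 1 means that state 2 lay beyond state 3.

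Against the unsorted cells, state 3 had 15 genes higher and 5 lower, where 10.8% of all genes were higher and 8.32% lower. State 2 had 10 higher and 6 lower, where 5.82% of all genes were higher and 5.30% lower. In state 1 no gene was called, where 1.98% of all genes were called in either direction. Of protein-coding genes, 16.8% were higher and 12.7% lower in state 3, and 9.10% and 8.17% in state 2. In state 1 3.11% of them were called. These 3 comparisons share the total population as their reference.

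Genes of amino acid use around the carriers were counted in 7 lists for state 3 against state 1, where 20.4% of all genes were called. The lists hold protein-coding genes only, of which 17.7% rose and 13.8% fell. Among all genes with a mean of at least 10, 20.8% rose and 17.3% fell. The share called was 29.4% for arginine and polyamine enzymes, 34.8% for other carriers and 45.5% for the ATF4 response. For sensing by mTORC1 the share was 50%, for glutathione and NRF2 genes 53.3% and for glutamine and glutamate enzymes 60%. It was largest for branched-chain amino acid breakdown, at 64.3%. Of 14 genes of branched-chain amino acid breakdown, 9 fell and none rose, with a median log2 ratio of -0.46. Bckdha, a subunit of the dehydrogenase that commits these acids to breakdown, had 385 in state 3, 471 in state 2 and 934 in state 1 (-1.28). Bckdhb, the other subunit of its first component, had 252, 322 and 441 in the same groups (-0.81), and Bcat1, which removes their amino group, had 3044, 2912 and 5049 (-0.73).

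Of 34 genes of amino acid sensing by mTORC1, 3 rose and 14 fell in state 3 against state 1, with a median of -0.22. Sesn1, a leucine-responsive inhibitor of the pathway, fell at 142 in state 3 against 382 in state 1 (-1.42), and its relative Sesn3 rose at 807 in state 3 against 385 in state 1 (1.07). Gatsl2 of the arginine-sensing Castor family rose at 294 in state 3 against 138 in state 1 (1.08). Gatsl3 of the same family fell at 232 in state 3 against 296 in state 1 (-0.35).

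Of 22 genes of the ATF4 response to amino acid shortage, 6 rose and 4 fell, with a median of -0.05. Vldlr, a lipoprotein receptor, rose at 110.4 in state 3 against 31.7 in state 1 (1.77). Ddit4, an mTORC1 inhibitor raised by stress, rose at 828 against 319 (1.37), and Ddit3, the stress transcription factor CHOP, rose at 103 against 44.2 (1.197). The 4 that fell were Pycr1 (-1.11), Sesn2 (-0.62), Atf5 (-0.37) and Shmt2 (-0.36). The other 12 were not called, among them Asns, Psat1 and Atf4 itself. Atf4 stood at 3523 in state 3 and 3881 in state 1.

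Of 15 glutamine and glutamate enzymes, 4 rose and 5 fell, with a median of -0.31. Glul, which makes glutamine from glutamate, had 4399.8 in state 3, 7075 in state 2 and 10148 in state 1, and fell in every comparison between states (-1.21 in state 3 against state 1). Gfpt2, which spends glutamine on amino sugars, fell at 994 in state 3 against 2292 in state 1 (-1.204), and Oat, which joins ornithine to glutamate metabolism, rose at 935 against 481 (0.96).

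Of 15 glutathione and NRF2 genes, 2 rose and 6 fell, with a median of -0.17. Me1, a source of NADPH, rose at 609 in state 3 against 244 in state 1 (1.31), Hmox1, which degrades heme, rose at 2990 against 1627 (0.88), and Gpx4, which reduces lipid peroxides, fell at 1653 against 3361 (-1.02). Of 17 arginine and polyamine enzymes, 2 rose and 3 fell, with a median of -0.01. Gatm, which turns arginine and glycine into the precursor of creatine, had 129.9 in state 3, 84.3 in state 2 and 22.9 in state 1 and rose (2.45), whereas the creatine carrier Slc6a8 fell. Ass1, which makes arginine from citrulline, fell at 1057 in state 3 against 2724 in state 1 (-1.36), and Oaz2, which restrains polyamine synthesis, fell at 605 against 991 (-0.71).

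Of 23 other amino acid and peptide carriers, 2 rose and 6 fell, with a median of -0.10. Slc15a1, the proton-coupled importer of small peptides, had 8.06 in state 3, 9.13 in state 2 and 88.7 in state 1 and fell (-3.31). Slc16a10, a carrier of aromatic amino acids, rose at 150.4 in state 3 against 37.1 in state 1 (1.99). Slc25a12, which carries aspartate and glutamate across the inner mitochondrial membrane, fell at 228 in state 3 against 539 in state 1 (-1.24).

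**Figure D4:**
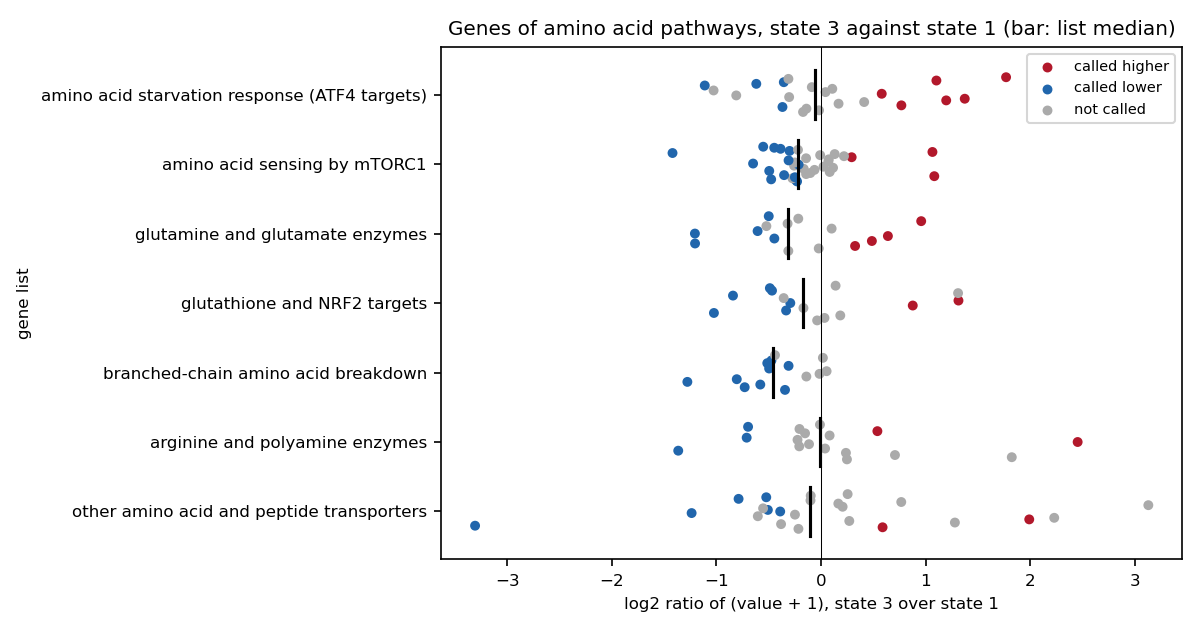
Log2 ratio of value + 1 in state 3 over state 1 (horizontal axis) for the genes of 7 amino acid lists (vertical axis), with red for called higher, blue for called lower, grey for not called and a bar at each list's median. Branched-chain amino acid breakdown has 9 genes called lower and none higher, and its median lies at -0.46.

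The small RNA table, from other libraries of the same groups, lists fragments of messenger RNA for 50 of the 60 transporter genes, and 11 of them had a mean of at least 10. In state 3 against state 1, 2 genes rose and none fell, where 0.552% of all features rose and 1.08% fell. Slc7a5 had fragment levels of 110.2 in state 3, 55.4 in state 2, 46.3 in state 1 and 50.8 in the total population, and was higher in state 3 than in state 2 (log2 ratio 0.98) and state 1 (1.23). In the RNA-seq table Slc7a5 was not called, with a ratio of 0.16. Slc7a7 had 54.8, 34.9, 19.0 and 35.6 in the same groups and was higher in state 3 than in state 1 (1.48), the direction it had in RNA-seq. In state 3 against state 2, Slc7a5 was the 1 gene called, where 0.304% of all features rose, and in state 2 against state 1 none was called, where 0.696% were called in either direction. Protein-coding genes held 9.18% of the summed small RNA values in state 3, 6.35% in state 2, 4.56% in state 1 and 5.56% in the total population. The summed values themselves were 2.61 M in state 3, 3.43 M in state 2, 5.13 M in state 1 and 4.15 M in the total population. A higher share is therefore not by itself a higher protein-coding level, and the part of this in the 2 genes was not tested.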

How the data were processed

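The deposited tables hold a normalized signal per gene and group, made by the authors, neither counts nor scaled to one total. Beside it the authors deposited a score, the posterior of EBSeq, for every one of 15 ways in which groups can be equal or differ. Tools named in the submitters' processing notes are RSEM 1.2.30 and STAR 2.4.1d, with builds mm10 and GRCm38 and no roles. How libraries were scaled and merged, and whether counting used strand, are points not given in the sources used here. The library protocol in the labels marks strand with dUTP. Column totals were 16.9 to 17.7 M, about 48.0 to 60.4 M reads by the smallest step of each column, and Gm26917 held 10.4 to 12.6% of them. Small RNA libraries summed to about 5.61 to 10.9 M reads per group.

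The pattern order was inferred: among features with a firm pattern, equal groups lay closer together than unequal ones in 94.4% (1453 features, RNA-seq) and 93.8% (161, small RNA), and exchanging state 1 with the total population gave 90.8% and 78.3%. Pattern scores were summed per comparison and called at 0.95, and log2 ratios used a pseudocount of 1, in Python 3.11.15 with pandas 2.3.3, numpy 2.4.6 and scipy 1.17.1; the summing was tested on simulated data. No test was run and no p-value computed. Genes and lists were chosen with earlier results of these data known. Gatsl3 and further genes of the ATF4 list were named outside the rule that follows. Named were the genes called between states (1 is counted but not reported here), uncalled genes among the 10 most abundant, up to 3 called genes per pathway list with the largest ratio in state 3 against state 1, and the sort genes. RefSeq spans place 12 of the 25 called genes over another gene, 3 of them over a protein-coding one: Slc7a3 with Snx12, Slc7a7 with Oxa1l and Slc6a9 with Ccdc24. The alternatives tried were other thresholds, pseudocounts, scalings and pattern order and a minimum ratio.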

Additional observations from a re-analysis of the deposited data

How the results depend on the processing

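Requiring an absolute log2 ratio of at least 1 left 6 genes higher and 2 lower in state 3 against state 1, 4 higher and 3 lower in state 2 against state 1, and 0 higher and 0 lower in state 3 against state 2. Against the total population it left 5 higher and 2 lower in state 3, and 2 higher and 2 lower in state 2. At a threshold of 0.99, 2 genes were higher in state 3 than in state 2, 2 were lower in state 3 than in the total population, 1 had state 1 apart and 0 had state 3 apart. At 0.90, 1 gene was higher in state 1 than in the total population, and 8 had state 1 apart. Pseudocounts of 0.5 and 5 and both other scalings leave the authors' probabilities as they are and bear only on the log2 ratios, whose direction held in all 44 single calls; the scalings moved the median gene by less than 0.1 on the log2 scale. The median log2 ratio of the 60 genes in state 1 against the total population, 0.02 as reported, was -0.01 with columns scaled to one total. With state 1 and the total population exchanged 41 held; Slc7a2 lost both calls (0.728 in state 2, 0.684 in state 3) and Slc1a3 its call in state 2 (0.945).

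No paired analysis was possible because the tables hold 1 merged value per group; for the same reason leaving out replicates, a replicate block, count models and tests per library were not run. All calls rest on the authors' model and on an inferred pattern order.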
